A study of Mus musculus with 45 samples.

Results

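MiR-126a and miR-139 are a pair of microRNAs that are well known from the cells of blood vessels, and their mature arms were read here in alveolar macrophages of mice that had breathed filtered air (FA) or ozone (O3). The members are the rows named mmu-mir-126a-3p, mmu-mir-126a-5p, mmu-mir-139-5p and mmu-mir-139-3p in 6 tables of normalized values, 1 table for each genotype and sex, and they are 4 of the 476 miRNAs listed in at least 1 table. They were chosen by their normalized values, which lay at or near 0 after FA in some groups, a rule with no numeric threshold. The values after FA and the contrast of O3 with FA therefore describe them and carry no test.

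The 45 mice (21 males and 24 females, aged 12 weeks) belonged to 3 genotypes, and none of them carried a working mouse gene for surfactant protein A (SP-A), a lung protein that takes part in host defence. SP-A2 mice carried a human SP-A2 transgene (variant 1A0), co-ex mice carried human SP-A1 and SP-A2 together (variants 6A2 and 1A0), and KO mice carried no human transgene. The transgenic mice were made on a C57BL/6J strain without SP-A, the promoter of the transgenes is not given in the sources used here, and the estrous cycles of the females had been synchronized by group housing with bedding from males. Mice breathed FA or O3 at 2 ppm for 3 h, and after 18 h of recovery the macrophages were taken by lavage and their small RNA was sequenced. There were 3 SP-A2 males on each exposure, 4 co-ex males on FA and 3 on O3, and 4 mice per exposure in the other 4 combinations of genotype and sex. The labels were used for these numbers, and for the co-ex males on FA they give 1 more mouse than the methods do. Each mouse is 1 replicate.

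In background knowledge, a miRNA precursor folds into a hairpin whose arms can each give a mature strand, and the bases 2 to 8 of that strand, the seed, pair with target mRNAs. MiR-126 comes from the gene of EGFL7, a protein secreted by endothelial cells, and is known for keeping vessels intact and for tuning their response to VEGF. MiR-139 comes from the gene of PDE2A, an enzyme that breaks down cyclic nucleotides, and is known from endothelial and blood-forming cells and as a growth-restraining miRNA. Macrophages are not the cells for which either is best known.

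The mature strands are shown because the arms of each precursor were counted separately, and capitals mark the seed. The sequences are from RefSeq on the mouse build GRCm38.p6, in which 3 of the 4 members had an entry, as had 407 of the 476 listed miRNAs.
miR-126a-3p: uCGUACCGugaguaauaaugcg
miR-139-5p: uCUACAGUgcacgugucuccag
miR-139-3p: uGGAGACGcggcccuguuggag
MiR-126a-3p lies at chr2:26591402-26591423 on the plus strand, miR-139-5p at chr7:101475382-101475403 and miR-139-3p at chr7:101475418-101475439, both on the plus strand. No other mature mouse miRNA in RefSeq shares any of the 3 seeds, so these 3 strands form 3 seed groups of 1 each. MiR-126a-5p had no entry, and its seed was not compared.

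The hairpins are shown to place the arms, with the mature strands of the RefSeq table in capitals.
Mir126a hairpin: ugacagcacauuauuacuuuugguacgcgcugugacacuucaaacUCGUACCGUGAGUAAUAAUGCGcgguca
Mir139 hairpin: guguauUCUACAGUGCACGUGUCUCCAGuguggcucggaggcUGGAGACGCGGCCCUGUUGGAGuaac
The Mir126a hairpin spans chr2:26591357-26591429, 73 bases on the plus strand, within Egfl7. Of the 9 Egfl7 transcripts of GENCODE M21 that span it, 1 has an exon there and in the others it is intronic. It also lies in an intron of the overlapping gene model Gm20532, and Mir126b is annotated on the opposite strand at chr2:26591363-26591420. The Mir139 hairpin spans chr7:101475376-101475443, 68 bases on the plus strand, in an intron of all 10 Pde2a transcripts that span it and of the gene model Gm45837. The build of the deposited tables is not given in the sources used here, and the coordinates are those of the reference.

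The deposited value of a miRNA in a mouse is its read count divided by a factor of that mouse. Every value was a whole multiple of the smallest one in its mouse, which was taken as 1 read. As few as 14 values of a mouse lie within 20 such steps, so in some mice this rests mainly on larger values, and the read counts and floors below assume it. The reads on listed miRNAs numbered 137965 to 2884013 in a mouse, with a median of 766213. The floor was taken as 3 reads, below which a miRNA is not told from 0, and they correspond to 1.04 to 21.8 RPM in these mice. RPM is used for levels across tables and is the number of reads of a miRNA for every 1000000 reads on the 206 miRNAs that all tables share. Floors and counting intervals cover counting error only. Over the 63 pairs of mice within groups, chi-square divided by its degrees of freedom was at least 49.4, so every pair differed by more than counting error. MiRNAs typical of myeloid cells, among them miR-21a-5p, miR-223-3p and miR-142a-5p, were listed in each table (6 or 7 of 7). Their summed level was between 3704 and 193504 RPM. The lowest of these sums are far under those of other mice of the same labelled cell type. Over all mice, miR-21a-5p made up most of the sum, with 2373599 reads beside 123851 of miR-223-3p and 43344 of miR-142a-5p.

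MiR-126a-3p, the arm of miR-126a best known in endothelial cells, was nearly absent after FA and was counted in most mice after O3. It was listed in 3 tables, those of SP-A2 males, SP-A2 females and KO males, with 22 mice. After FA, 9 of 11 mice had 3 reads or fewer and 6 of them had none, and the median was 0 reads. After O3, 1 of 11 mice had none and the others had 25 to 550 reads, with a median of 110 reads over the 11. In these bulk samples, more cells of a type and more of a miRNA in each cell cannot be told apart. In the 3 tables that do not list it, it was not analysed here. The tables hold only miRNAs with a value above 0 in at least 3 or 4 mice, so a miRNA that passed in a table with few mice above 0 after FA had to be above 0 after O3.

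In SP-A2 males, the normalized values of miR-126a-3p were 5.23, 3.61 and 10.6 after FA, from 3, 3 and 9 reads. After O3 they were 344, 259 and 76.3, from 452, 354 and 81 reads. The groups did not overlap, and the lowest mouse after O3 was 7.23-fold above the highest after FA. The mean was 6.47 ± 3.64 after FA (SD, n = 3) and 226 ± 137 after O3 (SD, n = 3), a ratio of 35.0. On the scale of log2(normalized value + 1), O3 minus FA was 4.78 with an SE of 0.91. The added 1 shrinks the change of low values, while a group with some mice at 0 and others well above it has a low mean on this scale, so that the difference can exceed the log2 of the ratio of means.

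SP-A2 females had 0, 0, 0 and 30.6 after FA, the last from 14 reads. After O3 they had 144, 26.5, 208 and 111, from 25, 57, 220 and 110 reads. Of the 4 mice after O3, 3 lay above every mouse after FA, and the second replicate, at 26.5, lay below FA replicate 4, so the groups overlapped. The ratio of the means, 122 ± 75.6 after O3 to 7.64 ± 15.3 after FA (SD, n = 4 each), was 16.0. The log2 difference was 5.37 with an SE of 1.45 (4.01 by edgeR on recovered reads), and it lay between 4.96 (without FA replicate 1) and 6.62 (without FA replicate 4) with a mouse left out.

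KO males had 0, 0, 0 and 0.927 after FA, which was 1 read in all. After O3 they had 1094, 197, 189 and 0, from 550, 89, 112 and 0 reads. Of the mice after O3, 3 were far above FA and replicate 4 was listed at 0, below the single read after FA, so the groups overlapped. O3 replicate 4 was also a shallow library, in which 3 reads would have given 11.5. Summed over mice there were 751 reads after O3, 550 of them from replicate 1, and 1 after FA, and no fold is given against 1 read. The log2 difference was 6.09 with an SE of 2.08, and it was 4.83 without O3 replicate 1 and 8.19 without O3 replicate 4.

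**Figure D1:**
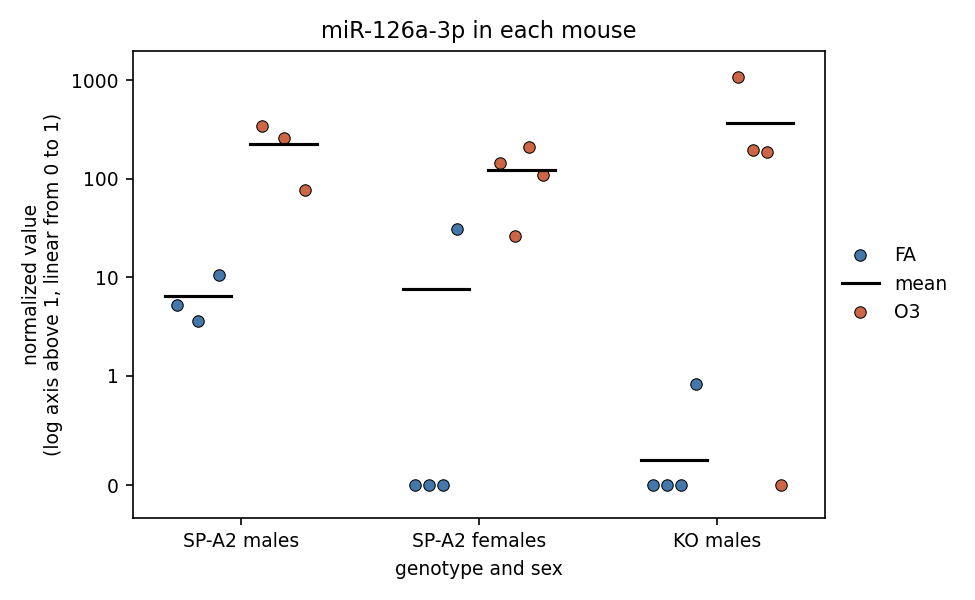
Normalized value of miR-126a-3p (vertical axis, logarithmic above 1 and linear below) in each mouse of the 3 tables that list it, with FA in blue, O3 in orange and the mean of each group as a bar. The mice after FA sit between 0 and 30.6, and those after O3 between 26.5 and 1094 except for 1 KO male at 0.

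In the order of levels on the common scale, KO males after O3 came first with 389 ± 509 RPM (SD, n = 4), followed by SP-A2 males after O3 with 237 ± 129 (SD, n = 3) and SP-A2 females after O3 with 145 ± 83.0 (SD, n = 4). After FA, SP-A2 females had 9.22 ± 18.4 (SD, n = 4), SP-A2 males 7.89 ± 4.59 (SD, n = 3) and KO males 0.244 ± 0.487 (SD, n = 4). The neighbours in this order that differed by more than the larger of their SDs were SP-A2 females after O3 and after FA, and SP-A2 males and KO males after FA. Among the miRNAs of a table, miR-126a-3p stood at places 315 to 347 of 448 in SP-A2 males after FA and at places 100 to 191 after O3.

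The other arm, miR-126a-5p, was listed only in the table of SP-A2 males. It had no reads in any of the 3 mice after FA, and 19, 2 and 3 reads after O3, which are normalized values of 14.5, 1.46 and 2.83. Of the 3 mice after O3, 2 were at or under the floor of 3 reads, so no fold is given. In the same mice, miR-126a-3p had 23.8 to 177 reads for each read of miR-126a-5p, and the 5p arm made up 2.63% of the summed reads of the precursor after O3 (24 of 911 reads). At 15 reads of the 3p arm over the 3 mice after FA, a 5p arm at this share would not have been detectable.

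MiR-139-5p, the main arm of miR-139, was listed in all 6 tables and so in 45 mice. After FA, 8 of 23 mice had no reads and the median was 30 reads. After O3, each of 22 mice had at least 6 reads, with a median of 214. On the common scale the median mouse had 43.3 RPM after FA and 319 after O3, and the highest had 517 and 747. The mean normalized value was higher after O3 in each of the 6 tables, but in 3 of them the groups overlapped widely.

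Co-ex males had no reads of miR-139-5p in any of 4 mice after FA. After O3 the 3 mice had 21.3, 465 and 522, from 29, 542 and 424 reads. The groups did not overlap, but the libraries after FA differed in what they could show. At 3 reads, the value would have been 21.8, 1.87, 9.86 and 1.85 in the 4 mice after FA, so O3 replicate 1 was not above the floor of FA replicate 1, the shallowest library of the series. Against the mean floor of the FA mice, the mean of 336 ± 274 after O3 (SD, n = 3) was at least 38.0-fold higher. The paper's own fold change of miR-139-5p differs from this, with a slight decrease after O3 in co-ex males. For co-ex females it gives a smaller rise than the one below. For SP-A2 males, SP-A2 females, KO males and KO females, the paper's fold changes equal the ratios of means given below. These are 5.64, 2.12, 3.38 and 1.53. The conflict is thus limited to the co-ex mice, and its source was not found here.

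Co-ex females had 0, 58.6, 0 and 247 after FA, from 0, 18, 0 and 199 reads. After O3 they had 250, 395, 341 and 375, from 223, 1065, 163 and 509 reads. The 4 mice after O3 were close to each other and did not overlap with FA, although the nearest values, 250 and 247, were all but equal. The mean was 340 ± 64.2 after O3 and 76.4 ± 117 after FA (SD, n = 4 each), a ratio of 4.45, and the log2 difference was 4.93 with an SE of 2.01. By edgeR on recovered reads it was 2.06, and it was 3.78 without FA replicate 1 or 3, the mice at 0, and 6.43 without FA replicate 4.

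SP-A2 males had 92.4, 52.9 and 35.2 after FA and 92.9, 350 and 575 after O3. The groups did not overlap, but the lowest mouse after O3 and the highest after FA differed by a factor of 1.01. The ratio of the means was 5.64 and the log2 difference 2.23 with an SE of 0.75. SP-A2 females had 0, 55.2, 158 and 247 after FA and 305, 22.4, 442 and 206 after O3. The groups overlapped, with 2 of 4 mice after O3 above every mouse after FA, a ratio of means of 2.12 and a log2 difference of 2.05 with an SE of 1.57, which was 0.30 without FA replicate 1, the mouse at 0, and 2.98 without O3 replicate 2.

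KO males had 20.2, 25.4, 191 and 51.9 after FA and 670, 13.3, 256 and 34.4 after O3. The last of these and the 13.3 rest on 9 and 6 reads. The groups overlapped, with a ratio of means of 3.38 and a log2 difference of 0.98 with an SE of 1.52, which was 0.05 without O3 replicate 1 and 1.90 without O3 replicate 2. KO females had 130, 12.7, 0 and 394 after FA and 331, 97.2, 296 and 94.8 after O3. The highest mouse of this table was one after FA, and the ratio of the means was 1.53, with a log2 difference of 2.59 and an SE of 1.76. It was 0.97 without FA replicate 3, the mouse at 0, and 3.84 without FA replicate 4, and on recovered reads it was 0.42 by edgeR and 0.49 by DESeq2.

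**Figure D2:**
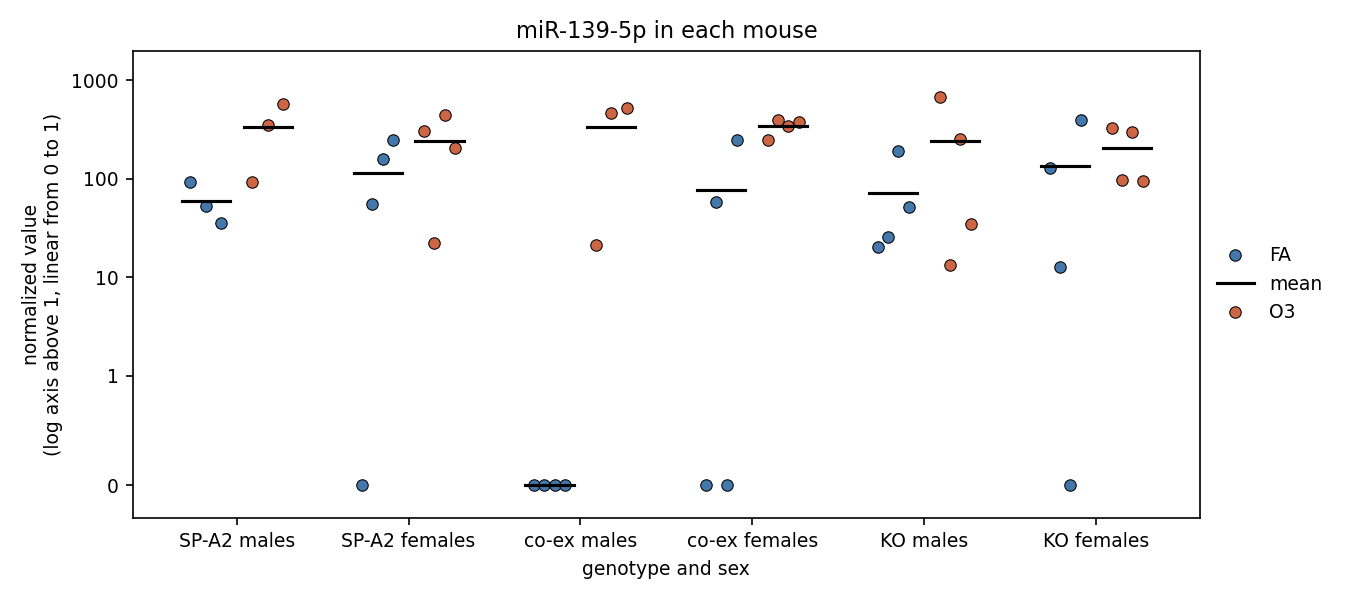
Normalized value of miR-139-5p (vertical axis, logarithmic above 1 and linear below) in each mouse of the 6 tables, with FA in blue, O3 in orange and the mean of each group as a bar. The 8 mice at 0 are all FA mice, 4 of them co-ex males, and the KO mice of the 2 exposures overlap.

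The level of miR-139-5p on the common scale was highest in SP-A2 males after O3, at 397 ± 328 RPM (SD, n = 3). Co-ex females with 367 ± 87.4 (SD, n = 4), co-ex males with 318 ± 299 (SD, n = 3), SP-A2 females with 287 ± 197 (SD, n = 4), KO males with 257 ± 314 (SD, n = 4) and KO females with 243 ± 158 (SD, n = 4) followed, all after O3. The 6 groups after FA came next, from KO females with 178 ± 240 (SD, n = 4) down to SP-A2 males with 73.1 ± 37.9 (SD, n = 3) and co-ex males at 0. Of the neighbours in this order, the last pair differed by more than the larger of their SDs and the other pairs did not.

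MiR-139-3p, the opposite arm, was listed only in SP-A2 males. Its normalized values were 0, 45.7 and 36.4 after FA and 14.5, 21.2 and 65.0 after O3, and the groups overlapped. The means were 27.4 ± 24.2 and 33.6 ± 27.5 (SD, n = 3 each), and the log2 difference of 1.23 with an SE of 1.52 became -0.56 without FA replicate 1, the mouse at 0.

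Reads of the arms in the same library do not depend on the normalization. After FA, SP-A2 males had 53, 44 and 30 reads of miR-139-5p beside 0, 38 and 31 of miR-139-3p. After O3 they had 122, 479 and 610 reads of miR-139-5p beside 19, 29 and 69 of miR-139-3p. The 3p arm was thus close to the 5p arm in 2 of 3 mice after FA and absent from the third, while after O3 there were 6.42 to 16.5 reads of the 5p arm for each of the 3p arm. In the summed reads, the 3p arm was 35.2% after FA and 8.81% after O3, but the mouse with no 3p reads after FA lay below every mouse after O3, so the shares overlapped.

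**Figure D3:**
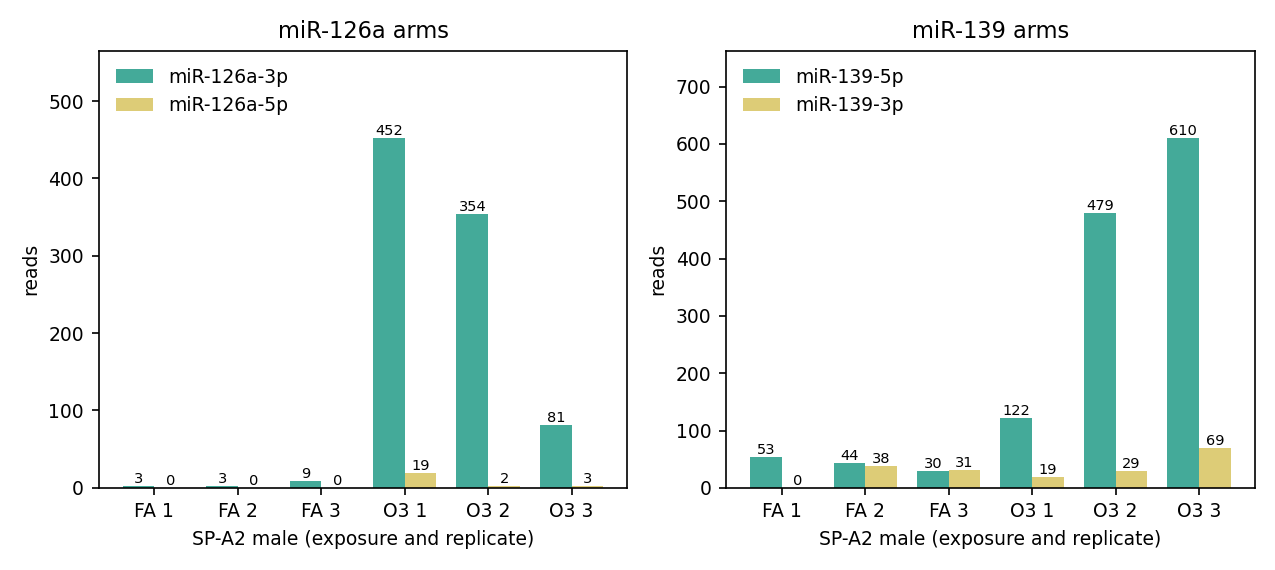
Reads of the arms of miR-126a and miR-139 (vertical axes, bars from 0, with the read count above each bar) in each of the 6 SP-A2 males, by exposure and replicate. The 5p arm of miR-139 has 122 to 610 reads after O3 while its 3p arm has 19 to 69, and the 5p arm of miR-126a does not exceed 19 reads.

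The miRNAs did not keep one order among mice. Among SP-A2 males after O3, replicate 1 had the most miR-126a-3p (452 reads) and the least miR-139-5p (122 reads), while replicate 3 had the least miR-126a-3p (81 reads) and the most miR-139-5p (610 reads). The ratio of miR-126a-3p to miR-139-5p reads in these mice was 3.70, 0.739 and 0.133, against 0.0566, 0.0682 and 0.300 after FA. In SP-A2 females after O3 the ratio was steadier, at 0.472, 1.19, 0.471 and 0.537, and it was at most 0.124 after FA, where 1 mouse had neither miRNA. In KO males after O3 it was 1.63, 14.8, 0.737 and 0, and at most 0.0179 after FA. Both strands are 22 bases long, and the ligation of adapters can favour one sequence over another, so the ratios compare mice and not the true amounts of the miRNAs.

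Set side by side, the 11 differences between O3 and FA (miR-126a-3p in 3 tables, miR-139-5p in 6 and each of the other arms in 1) lay between 0.98 and 7.46 on the log2 scale. The highest is that of miR-139-5p in co-ex males, which depends on the pseudocount because the FA mice were at 0. Over all miRNAs of a table, 57.1% had a difference above 0 in SP-A2 males, with a median of 0.17. The share was 57.6% for SP-A2 females (median 0.18), 67.1% for co-ex males (median 0.64) and 58.3% for co-ex females (median 0.31). For KO males it was 43% (median -0.29) and for KO females 64.1% (median 0.45). At an FDR of 0.1 (limma, Benjamini-Hochberg), 1 of the 11 was called, miR-126a-3p in SP-A2 males, where 0.446% of 448 miRNAs were called higher. This call was lost with a replicate block and in 4 of 6 fits with a mouse left out, while edgeR called 2 of the 11 and DESeq2 4. The edgeR calls fell in SP-A2 males and KO males, where edgeR called 5 of 448 and 16 of 328 miRNAs. The DESeq2 calls fell in SP-A2, KO and co-ex males, where DESeq2 called 54 of 448, 41 of 328 and 5 of 234 miRNAs. By limma, the shares called higher were 0.804% for SP-A2 females, 1.38% for co-ex females and 4.88% for KO males. In co-ex males and KO females limma called 0 miRNAs, with 8 and 22 at an unadjusted p under 0.05, edgeR called 0 in both, and DESeq2 called 5 and 2. Of the 11, 5 had groups that did not overlap, all with O3 higher, namely miR-126a-3p, miR-126a-5p and miR-139-5p in SP-A2 males and miR-139-5p in co-ex males and females. Over all miRNAs, 12.7% did so among SP-A2 males and 3.49% among SP-A2 females. The share was 6.41% for co-ex males and 5.86% for co-ex females, and 6.1% for KO males and 3.14% for KO females. Since low values after FA chose the members, nothing is read from these counts.

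**Figure D4:**
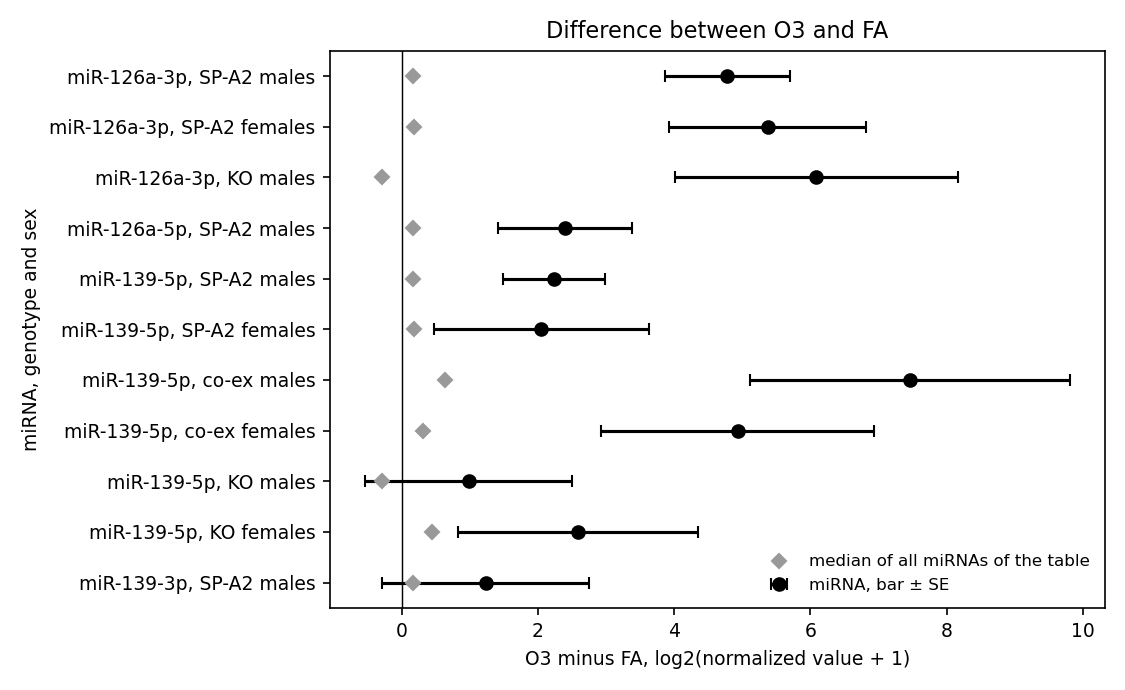
Difference between O3 and FA on the scale of log2(normalized value + 1) (horizontal axis) for the 11 combinations of miRNA, genotype and sex, as points with bars of ± SE, and the median of all miRNAs of the table as grey diamonds. The 11 points lie right of 0 and of the diamond beside them, with the bars of miR-139-5p in KO males and miR-139-3p in SP-A2 males crossing 0, and the points of miR-126a-5p and of miR-139-5p in co-ex males depend on the pseudocount.

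The comparison of sexes and of genotypes after O3 asks whether SP-A or sex set the level reached after O3. The FA mice enter none of these tests, but the values after O3 helped to decide which groups could be compared. In 8 of the 11 combinations of a miRNA and a table, too few FA mice were above 0 for the miRNA to be listed without the O3 mice, and 10 of the 11 tests hold at least 1 such group. The exceptions were miR-126a-3p in SP-A2 males and miR-139-5p in SP-A2 males and KO males. The tests therefore hold for listed groups, and those of miR-126a-3p leave out the tables without it. MiR-126a-3p could be compared in 2 of these and miR-139-5p in each of the 9 comparisons (3 between the sexes and 6 between genotypes), which makes 11 tests. They were made on recovered reads with edgeR (quasi-likelihood test) over all miRNAs of both tables. None of the 11 passed an FDR of 0.1, none had an unadjusted p under 0.05, and the lowest adjusted p by edgeR was 0.71. DESeq2 gave no member a call either. By edgeR no miRNA was called in these comparisons (0% in all 9), with 6 to 40 miRNAs at an unadjusted edgeR p under 0.05. DESeq2 called 0 to 44, the most in co-ex minus SP-A2 males (44 of 227).

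For miR-126a-3p after O3, SP-A2 males were above SP-A2 females by 0.79 on the log2 scale, with a 95% interval of -0.83 to 2.42 (edgeR adjusted p = 0.71). KO males minus SP-A2 males was 0.24, with an interval of -2.85 to 3.32 (edgeR adjusted p = 0.95). The second interval holds differences of more than 4-fold in both directions, so it does not show equal levels.

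For miR-139-5p after O3, males minus females was 0.41 in SP-A2 (95% interval -1.50 to 2.32), -0.08 in co-ex (-2.61 to 2.45) and -0.26 in KO (-2.76 to 2.23). The KO value is negative although the mean was 247 in males and 242 in females. These means are per 1000000 reads on the miRNAs that both KO tables list. Without normalization factors the KO difference was 0.03. Co-ex minus SP-A2 was -0.08 in males (-2.84 to 2.69) and 0.62 in females (-1.12 to 2.35). KO minus SP-A2 was -0.84 in males (-3.48 to 1.81) and -0.0045 in females (-1.84 to 1.83). KO minus co-ex was -0.87 in males (-4.19 to 2.45) and -0.71 in females (-2.45 to 1.02). The narrowest of these intervals, that of co-ex and SP-A2 females, still reaches from a 2.17-fold lower to a 5.11-fold higher level in co-ex. The female groups gave narrower intervals than the male groups in the genotype comparisons, and KO males after O3 were the shallowest group, with a median of 457456 reads on listed miRNAs.

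**Figure D5:**
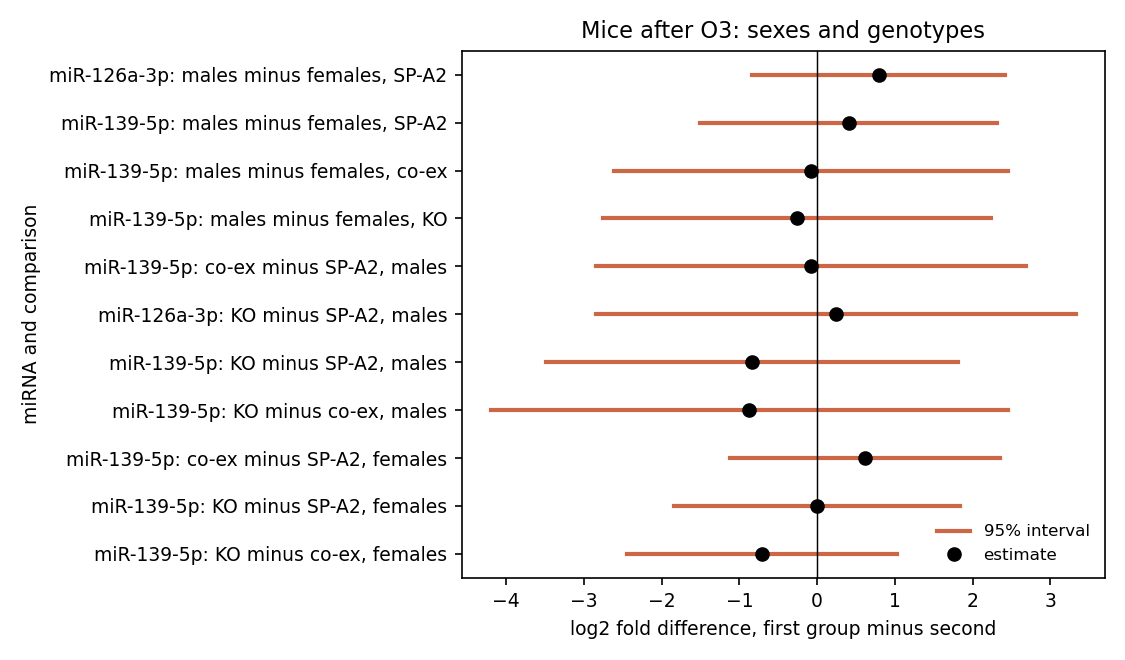
Log2 fold differences of miR-126a-3p and miR-139-5p between sexes and genotypes among mice after O3 (horizontal axis, first named group minus second), as points with lines for the 95% interval. The 11 intervals hold 0, and the points lie between -0.87 and 0.79.

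The miRNAs whose values followed a member most closely within groups were ranked by Pearson's r of the deviations from the group mean, among miRNAs listed in the same tables. These correlations are descriptions over mice that share a normalization and differ in depth, and no p is given. For miR-126a-3p (22 mice, 308 miRNAs compared) they were miR-30e-3p with r = 0.83, miR-466q with 0.80 and miR-7a-5p with 0.78, against a median r of 0.27 over all compared. MiR-139-5p stood at place 95, with r = 0.43. For miR-139-5p itself (45 mice, 205 compared) they were miR-690 with 0.56, miR-5099 with 0.49 and miR-664-3p with 0.47, against a median of 0.02. The order differed by Spearman's rank correlation, with miR-150-5p first for miR-139-5p (0.61) and miR-664-3p at place 24. For miR-126a-3p, miR-30e-3p stayed first by rank correlation and miR-7a-5p stood at place 20. In the 6 SP-A2 males, the 3 miRNAs closest to miR-126a-5p were miR-598-3p, miR-5110 and miR-205-5p (r from 0.97 to 0.98), and those closest to miR-139-3p were miR-5101, miR-3960 and miR-30b-3p (0.97 to 0.98), values that 6 mice and 447 compared miRNAs readily give. The arms did not follow each other closely there, with r = 0.39 for miR-126a and -0.13 for miR-139.

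Other miRNAs known from endothelial cells had higher summed levels after FA than the members. Of a list of 6, the arms of miR-126b were in no table, while miR-221-3p, miR-222-3p, miR-151-3p and miR-151-5p were listed in all 6. Their summed level was 501 to 3078 RPM after FA and 1632 to 5069 after O3. O3 minus FA was above 0 in 22 of 24 cases, but none was called by limma. Over all miRNAs of a table, 43% to 67.1% were above 0 and limma called 0% to 4.88% higher. The groups of summed levels did not overlap in 2 of 6 tables. MiR-221-3p and miR-222-3p, which are made from one cluster and restrain KIT signalling in endothelium, were above 0 in all mice except 1 after FA for miR-221-3p. MiR-151-5p was at 0 in 2 mice after FA, both co-ex males. In co-ex males its median was 10.9 RPM after FA and 1216 after O3. The log2 difference was 7.35 with an SE of 2.50, beside 7.46 for miR-139-5p in the same mice. For miR-151-5p it was 3.99 in co-ex females and 0.52 to 1.68 in SP-A2 and KO mice. The 4 miRNAs are also made in other cells, so they do not mark endothelium alone.

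MiRNAs of other cells were also read in the same libraries. Their lists, like the endothelial one, were written with earlier results of these data known, so the counts below are descriptions. A list of 15 typical of fibroblasts, smooth muscle and pericytes, led by miR-125b-5p, miR-143-3p and miR-99a-5p, had 8 to 13 members in a table. Its O3 minus FA was above 0 in 59 of 59 cases, 11 of which limma called higher. Over all miRNAs of a table, 43% to 67.1% were above 0 and limma called 0% to 4.88% higher. Its summed level after O3 lay above every FA mouse of the table in 5 of 6 tables, from 5012 to 7731 RPM after FA to 10898 to 21749 after O3 in SP-A2 males, and from 958 to 7999 to 10157 to 24065 in KO males. In the remaining table, that of KO females, it ranged from 1234 to 6110 after FA and from 4656 to 17163 after O3. The median log2 difference of the list was 1.43 to 4.24 in the 6 tables, beside the medians of all miRNAs given above. Of 16 epithelial miRNAs, led by miR-200c-3p, miR-200b-3p and miR-375-3p, 65 of 81 cases were above 0 and limma called none. Their summed level was 1084 to 14557 RPM after FA and 7089 to 27451 after O3, without overlap in 2 of 6 tables.

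The erythroid list (7 miRNAs, led by miR-486b-5p, miR-144-5p and miR-144-3p) had 15 of 26 cases above 0 and no call. Its sums were 2591 to 371261 RPM after FA and 1371 to 358548 after O3. This count and those below stand beside 43% to 67.1% above 0 over all miRNAs of a table. The lymphoid list (miR-150-5p and miR-150-3p) had 5 of 10 above 0 and no call, with sums of 65.4 to 7730 after FA and 39.4 to 14327 after O3. The myeloid list had 21 of 41 above 0, with none called higher and 2 called lower. Those were miR-142a-3p in SP-A2 males and miR-155-5p in SP-A2 females. Over all miRNAs, limma called 3 of 448 in either direction in SP-A2 males, 2 of them higher. In SP-A2 females it called 4 of 373, 3 of them higher. The myeloid sum lay lower after O3 without overlap in SP-A2 males alone of the 6 tables. It was 179912 to 193504 RPM after FA and 55041 to 163218 after O3 in these mice. The part of these lists in the values of miR-126a and miR-139 was not tested. The medians of depth also differed with exposure, with 699132 reads after FA and 1280171 after O3 in SP-A2 males, 902936 and 1677699 in co-ex males, and the reverse in KO males, with 1083876 and 457456.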

How the data were processed

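Small RNA of alveolar macrophages was sequenced after library preparation with the NEXTflex kit. The authors deposited 1 normalized signal per miRNA and mouse, in a table for each genotype and sex, beside p-values, q-values and ranks of their own comparison, which were not used. The submitters' notes name CASAVA and edgeR, and the methods name TCC 1.14.0. The aligner, the miRNA reference and the genome build are not given in the sources used here. Reads were recovered as multiples of the smallest value of a mouse (tolerance 1e-06). Depth is the sum over listed miRNAs.

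O3 and FA were compared within a table by limma 3.58.1 (R 4.3.3) on log2(normalized value + 1). Mice after O3 were compared by edgeR 4.0.16 (TMM, quasi-likelihood) on recovered reads, over the miRNAs of both tables. The Benjamini-Hochberg FDR was 0.1. DESeq2 1.42.0, pseudocounts of 0.1 and 10, a filter on low values (at least 10 in as many mice as the smaller group has), median-ratio rescaling, no normalization factors, a replicate block and each mouse left out were alternatives. The fits were tested on simulated data. Besides the members, the 3 miRNAs closest to each member and the 3 with the most reads of each marker list were named. The 4 members and the lists were chosen with earlier results of these data known.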

Additional observations from a re-analysis of the deposited data

Results flagged for a closer look

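In 12 combinations of a member and a group of 4 mice, the distance of the highest or the lowest mouse from the others was compared with the range of the group (Dixon's criterion), and 2 combinations stood out. For miR-126a-3p in SP-A2 females after FA, replicate 4 had a normalized value of 30.6 while the other 3 mice were at 0. In KO males after FA, replicate 4 had 0.927, which is 1 read, while the other 3 were at 0. Where the other 3 are at 0, any value above 0 meets this criterion. Its rate of about 1 group in 20 by chance is for normally distributed values and does not hold for such groups.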

How the results depend on the processing

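The 11 differences between O3 and FA kept their sign in 75 of 75 fits under other settings and in 78 of 79 with a mouse left out, and 14 of the 75 moved by more than 1 SD of the mice. The pseudocount moved those with values near 0. With a pseudocount of 10 the log2 difference was 3.64 for miR-126a-3p in SP-A2 males, 0.62 for miR-126a-5p in SP-A2 males (2.40 with a pseudocount of 1), 2.96 for miR-126a-3p in SP-A2 females and 4.32 for miR-139-5p in co-ex males (7.46 with 1). With 0.1 it was 5.34 for miR-126a-5p, 7.86 for miR-126a-3p in SP-A2 females and 10.8 for miR-139-5p in co-ex males. On recovered reads, edgeR gave 5.64 for miR-126a-5p, 11.3 for miR-139-5p in co-ex males and 9.68 for miR-126a-3p in KO males, and DESeq2 gave 4.64, 10.0 and 10.4 for these and 1.91 for miR-139-5p in co-ex females. For the last, the cause was not tested. The call of miR-126a-3p in SP-A2 males held in 2 of 6 fits with a mouse left out (without O3 replicate 1 or 3), with differences from 4.35 to 5.43. Since low values after FA chose the members, nothing is read from this call or its loss.

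Replicate numbers were not taken to pair the mice, since in no comparison were all correlations of same-numbered mice over 0.1. Single correlations lay between -0.24 and 0.32, so this rule cannot exclude a pairing. With the replicate block, no O3 minus FA difference was called, with the estimate for miR-126a-3p in SP-A2 males still 4.78 (SE 1.04), and the SP-A2 sex difference of miR-126a-3p after O3 was 0.98. The 11 tests after O3 stayed above an FDR of 0.1 in 66 fits under other settings and 80 with a mouse left out, with edgeR's lowest adjusted p among the latter at 0.34. The sign was kept in 60 and 66 of them. Rescaling by median ratios moved the median of all miRNAs by over 0.1 in KO males only (-0.29 to -0.50). The 22 mean levels moved by less than 1 SD when all listed reads were the base.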
